A study of Mus musculus with 60 samples.

Results

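The comparison set mouse islets in which MYC had been switched on against islets in which it had not, 8 h after the switch. Arrays were chosen by their titles, MycON or MycOFF at 8 hours, and the array that the submitters excluded at this time was left out. That gave 6 MycON and 5 MycOFF arrays, 11 of the 60 in the series, of which the submitters kept 52. All mice were male pIns-MYCERTAM transgenics on a CBA-C57BL/6 background. An insulin promoter drives, in beta cells, a fusion of MYC with a hormone-binding domain that makes it active only when 4-hydroxytamoxifen (4OHT) is bound. MycON mice received 1 mg of 4OHT daily into the abdominal cavity and MycOFF mice received peanut oil. Within each state, mice had received exenatide (exendin-4, an agonist of the GLP-1 receptor, 50 µg/kg, subcutaneous) or water, beginning 2 days earlier, so the 4 groups were MycON exenatide (3 arrays), MycON water (3), MycOFF exenatide (3) and MycOFF water (2). The labels state ages of 8 to 12 weeks and, elsewhere, of 3 months, which was not resolved. No mouse without the fusion received 4OHT, so an effect of the drug itself cannot be told apart from that of MYC. The labels call the arrays biological replicates without tying them to named animals, so the p-values measure the spread between these arrays.

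MYC is a transcription factor that binds DNA as a dimer with MAX, often at the E-box CACGTG, and is known for raising genes of cell growth: ribosome production, nucleotide and amino acid synthesis, and mitochondrial function. It also drives cells out of rest into S phase, where the E2F factors switch on the genes that license, copy and repair DNA. Adult beta cells seldom divide. They carry the insulin secretion machinery, whose genes depend on factors such as PDX1.

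Islets were cut by laser from frozen sections of 15 µm, and 6 µg of RNA was labelled per Affymetrix array. Each value below is the distance, in log2 units, between an array and the median of the same probe set over the 60 arrays, so a level cannot be compared between genes. A difference is MycON minus MycOFF, averaged over both injections, with its standard error (SE). The threshold was an adjusted p under 0.05 (limma, Benjamini-Hochberg over all 13176 genes tested), and "rose" or "fell" is kept for such genes. Over these values MycON arrays correlated with each other at 0.10 to 0.49 and MycOFF arrays at -0.04 to 0.34, while pairs across the states lay between -0.34 and 0.12. The excluded MycOFF water array stood apart. Its islet hormone genes averaged -5.13 and its lymphoid marker genes 6.32, against at most 0.52 for the lymphoid markers on the 11 arrays used. In laser-cut tissue, fewer cells of a type and less RNA per cell cannot be told apart.

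The promoters of the genes with the largest rises are shown first, because motifs for MYC and for E2F could be looked for there. Sequences are from RefSeq on GRCm38.p6, from 250 bases before to 50 bases after each gene's start, and 10590 of the 13176 tested genes matched an entry. Of the 15 largest rises that separated the groups, 3 had CACGTG in this window. They are Tspan4 (a membrane tetraspanin), Slc16a1 (the lactate and pyruvate carrier MCT1) and Smpdl3b (a membrane phosphodiesterase), with CACGTG in capitals. Ucn3, a peptide of mature beta cells that fell, is given beside them and had no match to any motif searched.
Tspan4 promoter, chr7:141476130-141476429, plus strand: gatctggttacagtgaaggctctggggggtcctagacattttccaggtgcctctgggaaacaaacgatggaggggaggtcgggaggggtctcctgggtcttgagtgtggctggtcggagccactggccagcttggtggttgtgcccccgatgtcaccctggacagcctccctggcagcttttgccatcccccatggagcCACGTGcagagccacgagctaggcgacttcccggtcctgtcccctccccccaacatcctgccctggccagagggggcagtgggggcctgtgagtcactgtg
Slc16a1 promoter, chr3:104638414-104638713, plus strand: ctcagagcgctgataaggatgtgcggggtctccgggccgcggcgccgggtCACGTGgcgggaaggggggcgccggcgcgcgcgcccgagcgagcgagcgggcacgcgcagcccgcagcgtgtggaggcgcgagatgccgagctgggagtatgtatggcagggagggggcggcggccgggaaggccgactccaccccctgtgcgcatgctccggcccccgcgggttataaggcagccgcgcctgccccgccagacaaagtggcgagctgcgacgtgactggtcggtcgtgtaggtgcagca
Smpdl3b promoter, chr4:132757122-132757421, minus strand: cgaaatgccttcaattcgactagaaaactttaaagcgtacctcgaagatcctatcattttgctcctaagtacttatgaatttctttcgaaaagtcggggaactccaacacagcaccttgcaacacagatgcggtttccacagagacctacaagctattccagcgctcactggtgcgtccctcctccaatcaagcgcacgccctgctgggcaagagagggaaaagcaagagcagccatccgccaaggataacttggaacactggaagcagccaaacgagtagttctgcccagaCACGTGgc
Ucn3 promoter, chr13:3945300-3945599, minus strand: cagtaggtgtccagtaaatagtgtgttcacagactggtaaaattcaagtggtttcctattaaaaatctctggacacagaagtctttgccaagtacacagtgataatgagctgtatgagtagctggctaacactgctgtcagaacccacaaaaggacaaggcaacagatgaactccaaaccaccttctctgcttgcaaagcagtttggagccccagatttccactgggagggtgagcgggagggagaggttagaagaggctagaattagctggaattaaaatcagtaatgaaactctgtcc

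Of the same 15 genes, 4 had an E2F-type run, TTTGGCGC or TTTCCCGC, on either strand. They were chosen for display after the matches were seen. Cdt1 encodes a loader of the replicative helicase, Mcm5 and Mcm6 encode subunits of it, and Hells encodes a chromatin remodeller. Capitals mark the run or, where it lies on the other strand, its reverse complement.
Cdt1 promoter, chr8:122567765-122568064, plus strand: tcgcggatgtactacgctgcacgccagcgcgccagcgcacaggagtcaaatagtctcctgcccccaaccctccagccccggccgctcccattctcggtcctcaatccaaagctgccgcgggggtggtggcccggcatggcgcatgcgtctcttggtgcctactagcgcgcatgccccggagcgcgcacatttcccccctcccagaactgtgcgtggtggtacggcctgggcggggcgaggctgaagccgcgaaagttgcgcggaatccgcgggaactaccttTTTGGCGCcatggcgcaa
Mcm5 promoter, chr8:75109259-75109558, plus strand: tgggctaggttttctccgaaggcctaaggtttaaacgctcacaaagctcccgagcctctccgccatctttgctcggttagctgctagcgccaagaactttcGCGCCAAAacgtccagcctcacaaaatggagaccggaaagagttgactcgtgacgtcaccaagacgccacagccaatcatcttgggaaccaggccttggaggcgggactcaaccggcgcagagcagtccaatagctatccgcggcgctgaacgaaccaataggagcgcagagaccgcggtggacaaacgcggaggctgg
Mcm6 promoter, chr1:128359656-128359955, minus strand: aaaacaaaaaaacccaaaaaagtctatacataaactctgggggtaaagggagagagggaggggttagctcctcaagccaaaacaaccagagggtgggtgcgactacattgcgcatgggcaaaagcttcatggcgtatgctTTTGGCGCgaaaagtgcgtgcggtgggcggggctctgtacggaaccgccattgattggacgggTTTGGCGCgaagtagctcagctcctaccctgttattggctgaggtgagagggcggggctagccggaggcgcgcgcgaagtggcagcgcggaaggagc
Hells promoter, chr19:38930740-38931039, plus strand: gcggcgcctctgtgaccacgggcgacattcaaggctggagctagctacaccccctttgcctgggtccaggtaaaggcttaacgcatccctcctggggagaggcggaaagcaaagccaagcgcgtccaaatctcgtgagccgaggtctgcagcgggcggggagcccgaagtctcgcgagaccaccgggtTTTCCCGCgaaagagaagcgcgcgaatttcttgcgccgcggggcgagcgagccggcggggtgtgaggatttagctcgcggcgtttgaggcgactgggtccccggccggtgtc

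Counted from each start, CACGTG began at -51 in Tspan4, at -200 in Slc16a1 and at 42 in Smpdl3b. In Mcm6, TTTGGCGC occurred at 2 places. Over whole groups of genes, CACGTG was in the window of 11.2% of the genes that rose (28 of 249 with an entry), 19.2% of those that fell (14 of 73) and 11.3% of all tested genes with an entry. TTTGGCGC was found in 3.61% of the genes that rose (9 of 249), in 0 of 73 that fell and in 1.1% of all tested genes. TTTCCCGC was found in 6.43% of the genes that rose (16 of 249), in 0 of 73 that fell and in 2.12% of all tested genes. Over the 27025 genes of the table the shares were 8.09%, 0.585% and 1.24% for CACGTG, TTTGGCGC and TTTCCCGC. A gene counted when any of its promoters matched, and genes that fell had a mean of 1.36 promoters against 1.27 for all tested genes. Per promoter, CACGTG was in 9.48% for genes that rose, 14.1% for genes that fell and 9.52% for all tested genes. Over all 32851 promoters of the table the shares were 7.15%, 0.514% and 1.07% in the same order of motifs. Both strands were searched and each of the 3 motifs was counted on its own, so the same gene can count for several. The shares of both E2F-type runs were higher among genes that rose than among all tested genes, and the share of CACGTG was nearly the same. These shares are descriptions of a 300-base window without a test, and a match is not a binding site.

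More genes were higher than lower in MycON islets. Of 13176 genes, 393 passed (2.98%), 303 of them higher (2.3%) and 90 lower (0.683%). The median rise was 1.63 and the median fall -1.25 on the log2 scale, against a median of 0.04 over all genes. At least a 2-fold difference was found for 350 of the 393 (2.66% of all genes). At least 4-fold rises were made by 103 genes and at least 4-fold falls by 5, and 27 genes rose at least 8-fold. All 6 MycON arrays lay above all 5 MycOFF arrays for 250 of the 303 genes that rose, against 433 of all genes (3.29%), and below them for 63 of the 90 that fell, against 170 of all genes (1.29%). Without 1 array the count of genes ran from 172 to 417. It fell by over 1.5 times without MycOFF water replicate 1 (172), MycON exenatide replicate 1 (192), MycON exenatide replicate 3 (199), MycOFF water replicate 3 (241) or MycOFF exenatide replicate 1 (260). With the excluded MycOFF water array put back, 99 genes passed. At an unadjusted p under 0.05 there were 2253 genes (17.1%).

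**Figure D1:**
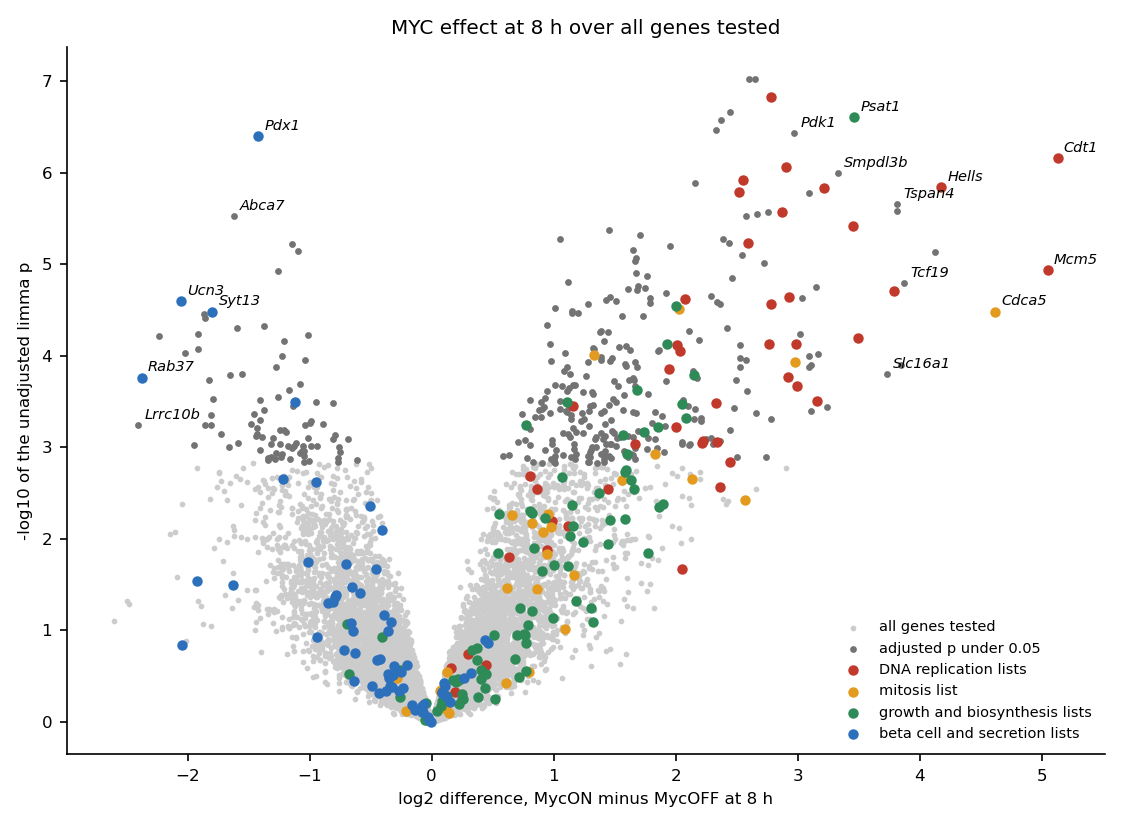
Difference between MycON and MycOFF islets at 8 h (log2, horizontal) against -log10 of the unadjusted limma p (vertical), with 1 point for each of 13176 genes and colours for groups of lists. The DNA replication genes past the threshold (red) lie on the right, up to 5.13 for Cdt1, and the called beta cell and secretion genes (blue) on the left.

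Genes that load and fire replication origins were among the largest rises. Cdt1, which brings the MCM helicase to origins, ran from 2.10 through a median of 2.49 to 2.90 on the MycON arrays, against -2.76, -4.37 and -1.71 on the MycOFF exenatide arrays and -2.94 and -1.42 on the MycOFF water arrays. Its 6 MycON values were close together and the groups were more than 3 log2 units apart at their nearest. The difference was 5.13 ± 0.47 (adjusted p = 0.00091, limma), a 35.1-fold rise. Mcm5, a subunit of the helicase ring, ran from 1.91 through 2.14 to 3.64 on the MycON arrays, against -1.63, -4.98, -1.30, -2.24 and -3.08 on the MycOFF arrays, a difference of 5.05 ± 0.63 (adjusted p = 0.00362). The lowest MycOFF value of both genes was on MycOFF exenatide replicate 2. Other probe sets of these genes gave smaller differences, 2.13 and 0.08 for Cdt1 and 1.02 for Mcm5, so the size depends on the probe set.

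Of the 18 licensing and helicase genes tested, 13 rose and 0 fell (2.3% and 0.683% of all genes did). Their median difference was 2.56, and all 18 were above 0, as were 56.1% of all genes. Beside Cdt1 and Mcm5 these were Mcm6 (3.79), the loader Cdc6 (3.16), Mcm3 (2.99), Gins1 (2.92), Mcm4 (2.91), Mcm7 (2.87), Mcm10 (2.79), the kinase pair Dbf4 (2.34) and Cdc7 (2.33), the CDT1 inhibitor Gmnn (2.21) and the origin subunit Orc6 (1.16). Mcm2 differed by 2.05 without passing, and so did Orc2 (1.12), Gins3 (0.98), Gins2 (0.87) and Gins4 (0.20). The mean of the list ran from 0.78 to 2.19 over the MycON arrays, against -1.23 to -0.60 over the MycOFF arrays. The lowest MycON means were those of MycON water replicate 3 (0.78) and MycON water replicate 2 (1.19). The count was 8 without MycON exenatide replicate 1 and 7 without MycOFF water replicate 1, and the median stayed between 2.38 and 2.75 in the 11 fits without 1 array.

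Most genes of the copying machinery rose too. Of 27 fork and DNA precursor genes, 19 rose and 0 fell (2.3% and 0.683% of all genes did), with a median of 2.23. Hells ran from 1.85 through 3.67 to 4.33 on the MycON arrays, against -1.06, -1.07, -0.77, -0.49 and -1.07 on the MycOFF arrays, a difference of 4.18 ± 0.41 (adjusted p = 0.00122). Its MycON values formed a high set of 4 arrays between 3.63 and 4.33 and a lower pair, MycON water replicates 2 and 3, at 1.85 and 2.00. Others were Uhrf1 (3.50), a reader of half-methylated DNA, the clamp loader genes Rfc4 (3.45) and Rfc5 (2.99), the single-strand binder Rpa2 (3.22), the ribonucleotide reductase subunits Rrm2 (2.93) and Rrm1 (2.78), the ligase Lig1 (2.76), the primase subunits Prim2 (2.59) and Prim1 (2.52), Pold1 (2.55) and the clamp Pcna (2.23). Fen1 (2.36) and Dut (1.44) did not pass, and Tk1 (0.64) and Tyms (0.16), which make thymidylate, were among the smallest differences.

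DNA repair and checkpoint genes showed the same direction, with 8 of 12 higher (2.3% of all genes rose), 0 lower and a median of 1.64. Trip13, an ATPase of meiotic and spindle checkpoints, differed by 4.13 ± 0.49. Chek1, the S phase checkpoint kinase, ran from 2.10 through 2.30 to 2.49 on the MycON arrays, against -1.17, 0.76, -0.90, 0.04 and -0.95 on the MycOFF arrays. The MycON range of Chek1 was narrow and the MycOFF values varied more, with a difference of 2.73 ± 0.33 (adjusted p = 0.0031). Atr (1.77), Blm (1.68), Chek2 (1.57), Brca2 (1.28) and Rad54l (1.15) also rose, with the calls of Chek2 and Blm lost in 9 and 7 of the 11 fits without 1 array. Other probe sets past the filter were at 0.41 and -0.09 for Atr, at 0.21 for Trip13 and from 0.07 to 1.12 for Chek1. Outside the lists, Tspan4 ran from 0.91 through 1.94 to 2.77 on the MycON arrays, against -2.71, -1.86, -1.72, -1.75 and -1.82 on the MycOFF arrays, a difference of 3.82 ± 0.40 (adjusted p = 0.00151). Its MycOFF values lay within 1 log2 unit of each other, the lowest on MycOFF exenatide replicate 1. Ung, which removes uracil from DNA, differed by 3.81 ± 0.40 and Tcf19, a chromatin factor studied in beta cells, by 3.87 ± 0.50.

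**Figure D2:**
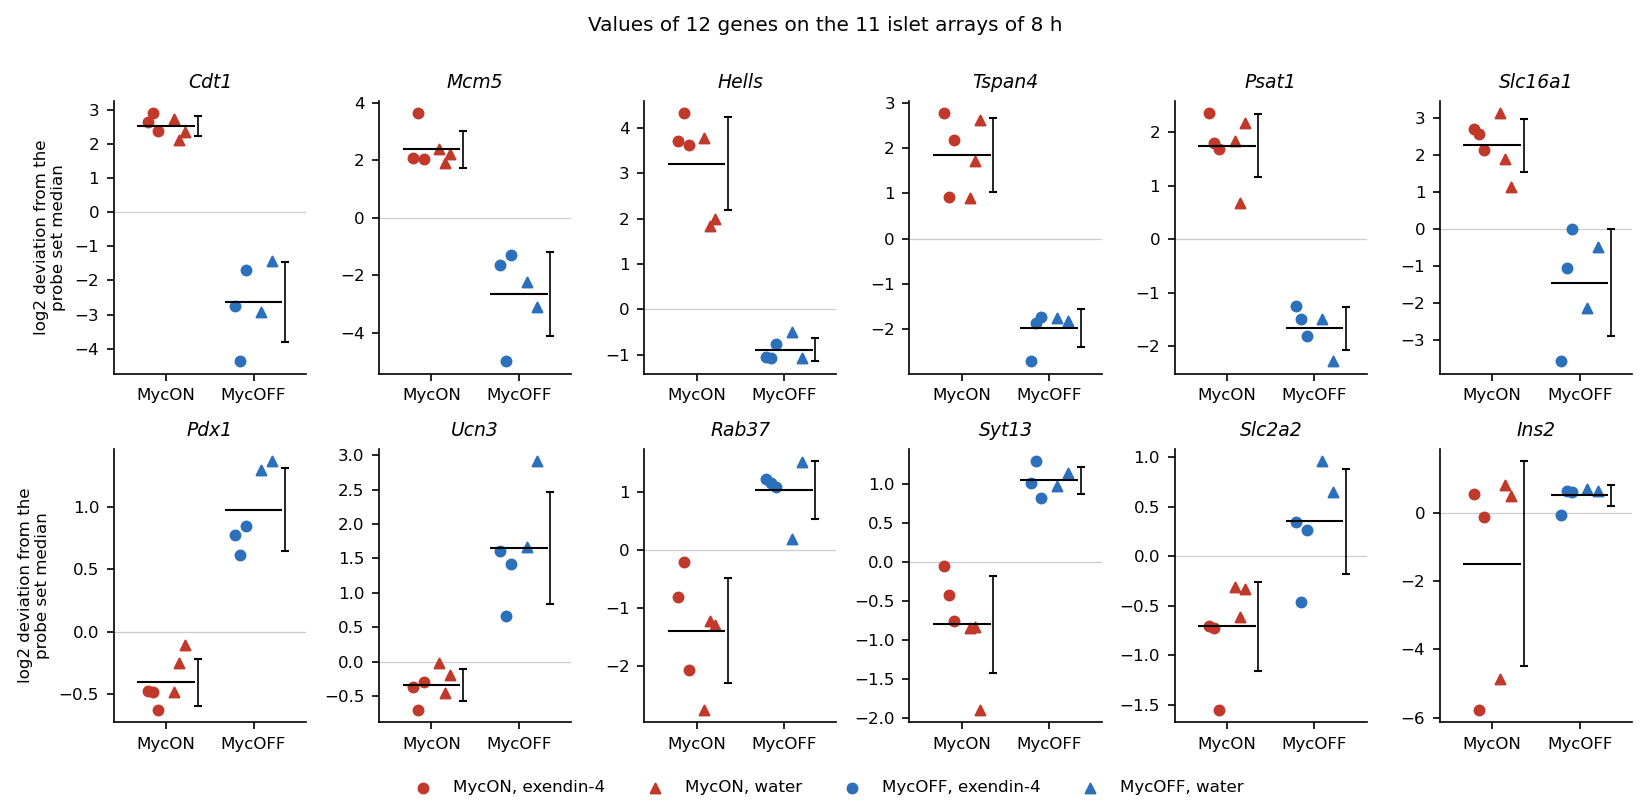
Log2 deviation from the probe set median (vertical) of 12 genes on each of the 11 arrays, MycON left and MycOFF right, circles for exenatide and triangles for water, lines for means and bars for SD. For Cdt1, Mcm5, Hells, Tspan4, Psat1, Slc16a1, Pdx1, Ucn3, Rab37 and Syt13 the groups do not overlap, whereas Slc2a2 overlaps on 1 MycOFF array and Ins2 is low on 2 MycON arrays.

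Some regulators of G1 and S phase and some genes of mitosis rose. Of 19 G1 and S phase genes, 4 rose and 0 fell (2.3% and 0.683% of all genes did), with a median of 0.66. These were the cyclins Ccne2 (3.17 ± 0.51) and Ccna2 (2.36 ± 0.33), the E2F family repressor E2f8 (2.17 ± 0.38) and the phosphatase Cdc25a (1.17 ± 0.27). The D cyclin Ccnd2 (0.10 ± 0.59) and its kinase Cdk4 (0.65 ± 0.76), both known MYC targets, did not pass. Other probe sets ran from 0.07 to 1.09 for Ccnd2 (6 sets) and were at 0.35 and 0.40 for Cdk4. The call of Cdc25a was lost in 10 of the 11 fits without 1 array. Of 27 mitosis genes, 5 rose (2.3% of all genes did) and 0 fell, with a median of 0.91. Cdca5, which protects sister chromatid cohesion, led them at 4.62 ± 0.65, with 1.65 to 3.52 (median 3.18) on the MycON arrays, against -0.21, -3.89, -0.28, -2.85 and -1.55 on the MycOFF arrays. The spindle checkpoint gene Bub1b differed by 2.98 ± 0.49, the topoisomerase Top2a by 2.03 ± 0.28, Birc5 by 1.83 ± 0.41 and the proliferation marker Mki67 by 1.33 ± 0.21. The call of Birc5 was lost in 9 of the 11 fits without 1 array. Another Top2a probe set past the filter was at -0.12. Cdca8 (2.57), Cdk1 (2.13), Aurkb (0.95), Ccnb2 (0.14), Ttk (0.07) and Kif23 (-0.28) did not pass. The mean of the mitosis list was 0.113 on MycON water replicate 2 and 0.105 on MycON water replicate 3, against 1.03 to 1.67 on the other 4 MycON arrays and -0.40 to 0.61 on the MycOFF arrays, so the groups overlapped. Of 7 inhibitors of cyclin-dependent kinases, Cdkn2b (-0.996 ± 0.20, adjusted p = 0.0293) fell. Its call was lost without MycON exenatide replicates 1, 2 or 3 or MycOFF water replicates 1 or 3. Cdkn1a (0.39 ± 0.82), Cdkn2a (1.04 ± 0.37) and Cdkn1b (-1.59) did not pass. The other Cdkn1a probe set was at 1.57. In the limma fit of 20 groups over the 52 kept arrays, used below to compare times, Cdkn2a passed as higher at 8 h. In that fit E2f8, Top2a and Mki67 did not pass at 8 h.

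Several lists of growth genes had medians above that of all genes, with few members past the threshold in the fit of the 11 arrays. Of 33 ribosome biogenesis genes, 3 rose (2.3% of all genes did) and 0 fell, with a median of 0.84. The count depended on the fit: in the fit of 52 arrays 11 of the 33 passed as higher at 8 h (3% of all genes did). The box C/D ribonucleoprotein gene Nop56 differed by 2.09 ± 0.41, Bop1 by 2.05 ± 0.39 and Wdr75 by 0.77 ± 0.16. Nhp2 (1.90), Nolc1 (1.86), Ddx21 (1.46), Nop2 (1.37) and Npm1 (0.44) did not pass, and the nucleolar protein gene Ncl differed by -0.05 ± 0.88 on the probe set used. The other 4 Ncl probe sets were at 1.59, 0.94, 0.56 and 0.61, so no direction is given for it. The calls of Wdr75 and Nop56 were lost in 8 and 6 of the 11 fits without 1 array. The list mean ran from 0.01 to 1.16 on the MycON arrays, against -1.11 to 0.09 on the MycOFF arrays, and the lowest of all 11 was MycOFF exenatide replicate 1. The count was 0 without MycON exenatide replicate 1 or 3 or MycOFF water replicate 1, 1 without MycOFF exenatide replicate 1 or MycOFF water replicate 3, and 5 without MycON water replicate 3. Without MycOFF exenatide replicate 1 the median was 0.78.

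Of 20 RNA polymerase I and III genes, Taf1d (1.93 ± 0.30), the polymerase III subunit Polr3g (1.86 ± 0.38) and Polr3k (1.11 ± 0.21) rose and 0 fell, and only 1 passed without MycON exenatide replicate 1 or 3 or MycOFF water replicate 3. Of 19 translation factor genes, the cap-binding Eif4e (1.46 ± 0.24) alone rose, where 2.3% of all genes rose. In this list 2 genes passed without MycON water replicate 3 or MycOFF exenatide replicate 1 or 2. Ribosomal protein genes (0 of 11 passed) had a median of 0.05, which ran from -0.19 to 0.25 in the fits without 1 array. Cytosolic aminoacyl-tRNA synthetases (0 of 19, from Farsb at 0.99 to Aars and Tars at -0.97) had a median of -0.14, which ran from -0.32 to 0.09, and 1 of them passed without MycON exenatide replicate 1. The call of Polr3g was lost in 9 of the 11 fits without 1 array.

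Enzymes that supply building blocks included several of the clearest differences. Psat1, the aminotransferase of serine synthesis, ran from 0.67 through 1.81 to 2.36 on the MycON arrays, against -1.26, -1.49, -1.82, -1.49 and -2.29 on the MycOFF arrays. The groups did not overlap, and the difference was 3.46 ± 0.28 (adjusted p = 0.000574). Of 11 serine and one-carbon genes, Psat1 and Shmt2, the mitochondrial serine hydroxymethyltransferase (1.57 ± 0.33), rose (2.3% of all genes did) and 0 fell. Phgdh (1.66), Shmt1 (1.64) and the folate carrier Slc19a1 (1.59) did not pass. Shmt2 lost its call in 9 of the 11 fits without 1 array and in the fit of 52 arrays. In that fit 4 of the 11 list genes passed as higher at 8 h.

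Of 18 purine and pyrimidine synthesis genes, 5 rose (2.3% of all genes did) and 0 fell, with a median of 0.72. Pfas (2.15 ± 0.37) and Ppat (2.00 ± 0.28) act early in purine synthesis, Adsl (1.5996 ± 0.36) late in it, Ctps (1.74 ± 0.36) makes CTP and Prps2 (1.68 ± 0.30) makes the shared ribose precursor. Cad, the multi-enzyme protein that starts pyrimidine synthesis, differed by 0.72 ± 0.34 without passing. The count was 2 without MycON exenatide replicate 1 or 3, and 3 without MycON exenatide replicate 2, MycON water replicate 1 or MycOFF water replicate 1. The calls of Adsl and Ctps were lost in 8 and 7 of the 11 fits without 1 array. Of 8 polyamine genes 0 passed. However, 1 did without MycON water replicate 2, and 1 passed as higher at 8 h in the fit of 52 arrays. Odc1, the rate-limiting enzyme and a known MYC target, ran from 0.05 to 1.00 on the MycON arrays, against -1.48, -0.63, 0.28, -1.72 and 0.11 on the MycOFF arrays, with a difference of 1.34 ± 0.39 (adjusted p = 0.101). Odc1 passed in the fit of 52 arrays and with the mean over probe sets, and its other probe sets were at 1.44 and 0.96. Azin1 (1.02) passed with quantile normalization, array weights and the replicate block, and another Azin1 probe set past the filter was at -0.11.

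Of 14 glycolysis and lactate genes, 2 rose (2.3% of all genes did) and 0 fell. Slc16a1 is known as a gene that mature beta cells keep silent. It ran from 1.12 through 2.36 to 3.14 on the MycON arrays, against -3.59, -1.05, 0.01, -2.15 and -0.48 on the MycOFF arrays, and the difference of 3.73 ± 0.64 (adjusted p = 0.0145) did not pass without MycOFF water replicate 1. Pdk1, the kinase that restrains pyruvate entry into mitochondria, differed by 2.97 ± 0.25 (adjusted p = 0.00058). Ldha, also known to be silent in beta cells, differed by 0.49, Pkm by 0.76 and Hk2 by -0.07, and none of them passed. Of 17 genes known as silenced in mature beta cells, Slc16a1 was the only one to rise, and the median was 0.30, or 0.14 without MycON exenatide replicate 1.

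Mitochondrial import genes included several rises, where 2.3% of all genes rose and 0.683% fell. Of 21 chaperone and import genes, 5 rose and 0 fell, with a median of 0.95: Timm8a1 (2.44 ± 0.28), the prohibitin Phb2 (1.91 ± 0.39), the import receptor Tomm20 (1.33 ± 0.24), the processing peptidase Pmpca (1.01 ± 0.14) and Timm23 (0.89 ± 0.17). Of 21 oxidative phosphorylation genes only Cyc1 (0.93 ± 0.17) rose, and their median was 0.01, which ran from -0.14 to 0.27 in the fits without 1 array. The call of Phb2 was lost in 6 of these 11 fits. The import count was 2 without MycON exenatide replicate 1 or MycOFF water replicate 1 and 3 without MycON exenatide replicate 3. The call of Cyc1 was lost without MycON exenatide replicates 1, 2 or 3 or MycOFF water replicate 1. In the fit of 52 arrays 8 of the 21 import genes passed as higher at 8 h, and Cyc1 did not pass. Of 16 cholesterol and lipid synthesis genes, Elovl6 (1.85 ± 0.40), the fatty acid synthase Fasn (1.57 ± 0.30) and Dhcr7 (1.51 ± 0.21) rose and 0 fell. Only Dhcr7 of the 3 passed without MycON exenatide replicate 1 or 3 or MycOFF water replicate 1 or 3. Insig2, which holds back sterol synthesis, fell by 1.86 on the log2 scale (SE 0.37, adjusted p = 0.0302). The calls of Elovl6 and Insig2 were lost in 10 and 7 of the 11 fits without 1 array.

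**Figure D3:**
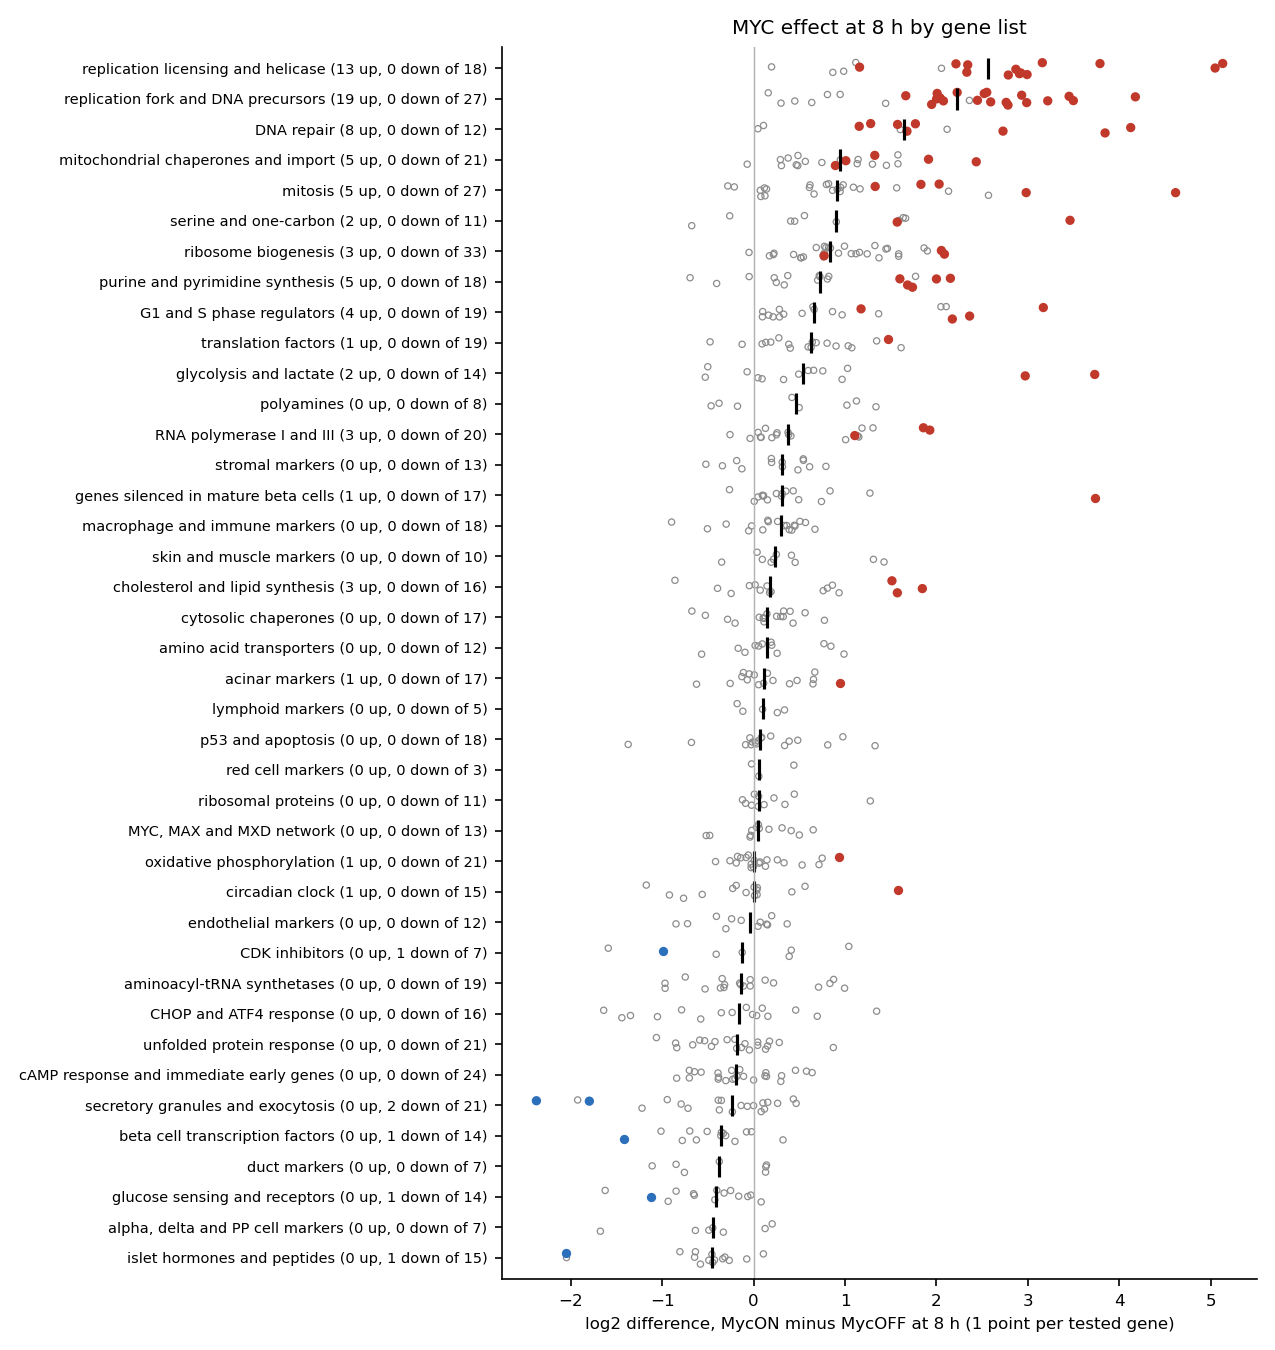
Difference between MycON and MycOFF at 8 h (log2, horizontal) for each tested member of 40 gene lists, ordered by median (black bar), with filled points for genes past an adjusted p of 0.05. The replication lists lie at the top with medians of 2.56 and 2.23 and the islet hormone list at the bottom with a median of -0.46.

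Lists of beta cell identity and secretion genes had medians below 0, with a few falls, where 0.683% of all genes fell. Medians below 0 were not particular to them: alpha, delta and PP cell markers were at -0.45 and duct markers at -0.38. Macrophage and stromal markers were above 0, at 0.30 and 0.31. Pdx1, the transcription factor that maintains insulin expression, ran from -0.62 through -0.48 to -0.11 on the MycON arrays, against 0.78, 0.61, 0.84, 1.29 and 1.36 on the MycOFF arrays. Both groups were tight and did not overlap, and the difference was -1.42 ± 0.12 (adjusted p = 0.00058), with a second probe set at -1.15. Plut, the noncoding RNA that lies beside Pdx1 in the genome, differed by -1.82 ± 0.32. Of 14 beta cell transcription factors Pdx1 alone fell, and without MycON exenatide replicate 1 another member passed. Nkx6-1 (-1.01), Pax6 (-0.78), Isl1 (-0.35) and Neurod1 (-0.31) did not pass, and the median was -0.36.

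Ucn3, a peptide marking mature beta cells, ran from -0.70 through -0.34 to -0.01 on the MycON arrays, against 1.61, 0.66, 1.42, 1.67 and 2.91 on the MycOFF arrays, a difference of -2.06 ± 0.28 (adjusted p = 0.00518). It was the only one of 15 hormone and peptide genes to fall, and Iapp (-0.81) and Chga (-0.08) did not pass. In the fit of 52 arrays 0 of the 15 passed at 8 h, so the call of Ucn3 was lost. Ins2, the insulin gene tested, was -5.76 on MycON exenatide replicate 2 and -4.88 on MycON water replicate 1, against -0.10 to 0.82 on the other 4 MycON arrays and -0.04 to 0.72 on the MycOFF arrays. The difference was -2.05 ± 1.29 (adjusted p = 0.491). The 2 arrays low in Ins2 had the highest means of 17 acinar marker genes, 1.79 on MycON exenatide replicate 2 and 0.85 on MycON water replicate 1, against -1.05 to 0.18 on the other MycON arrays and -0.89 to 0.70 on the MycOFF arrays. The part of acinar RNA in the Ins2 values was not tested.

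Of 14 glucose sensing genes the glucose transporter Slc2a2 (-1.12 ± 0.21, adjusted p = 0.0222) alone fell. It ran from -1.55 to -0.31 on the MycON arrays, against 0.34, -0.46, 0.26, 0.96 and 0.65 on the MycOFF arrays, so that MycOFF exenatide replicate 2 overlapped. Its call was lost without MycOFF exenatide replicate 1 or MycOFF water replicate 1 or 3, and with the excluded array put back its difference was 0.19. The call of Slc2a2 was also lost in the fit of 52 arrays and without the injection covariate. Of 21 secretory genes the small GTPase Rab37 (-2.38 ± 0.41) and the synaptotagmin Syt13 (-1.80 ± 0.25) fell. Syt13 ran from -1.89 to -0.05 on the MycON arrays, against 1.00, 1.29, 0.81, 0.96 and 1.13 on the MycOFF arrays. The vesicle protein Sv2a (-1.94 ± 0.42) fell as well, a call lost in 7 of the 11 fits without 1 array, while Cplx2 (-1.93), Snap25 (-0.38), Cpe (-0.39) and Pcsk1 (-0.35) did not pass. Among the other large falls were Hs3st6 (-2.23 ± 0.34), a heparan sulphate sulphotransferase, the palmitoyltransferase gene Zdhhc22 (-1.87 ± 0.27) and the Nogo receptor relative Rtn4rl1 (-1.86 ± 0.27). The transcription factor Zfhx3 (-1.79 ± 0.33) and the lipid transporter Abca7 (-1.62 ± 0.17) were others. The call of Zfhx3 was lost in 4 of the 11 fits without 1 array and with the mean over probe sets. Other Zfhx3 probe sets past the filter were at -0.11, -0.44, -0.04 and 0.10.

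Stress, death and signalling lists gave 0 genes past the threshold, but not in every fit. In fits without 1 array, 1 gene passed in each of 3 of them: CHOP and ATF4 without MycOFF exenatide replicate 1, p53 and apoptosis without MycON water replicate 2, and the amino acid transporters without MycON exenatide replicate 3. The lists were the unfolded protein response (0 of 21, median -0.19), the CHOP and ATF4 response (0 of 16, median -0.16), p53 and apoptosis (0 of 18, median 0.07), the cAMP and immediate early genes (0 of 24, median -0.19, or 0.06 without MycOFF exenatide replicate 2), the cytosolic chaperones (0 of 17), the amino acid transporters (0 of 12) and the MAX network (0 of 13, median 0.05). Ddit3, which encodes CHOP, was -1.11 to -0.01 on the MycON arrays, against 1.88 and 2.34 on MycOFF exenatide replicates 1 and 2 and 0.01 to 0.20 on the other MycOFF arrays, with a difference of -1.35 ± 0.44 (adjusted p = 0.141). In the fit of 52 arrays, 1 CHOP and ATF4 gene passed as higher and 1 as lower at 8 h. Of the cAMP and immediate early genes, 1 passed as lower in that fit. Ddit3, Eif4ebp1 and Rasd1 passed in it, and Eif4ebp1 also passed with the mean over probe sets. Mdm2 (-1.37), of the p53 list, passed with quantile normalization, the 60th percentile filter and array weights. Its other probe sets were at 0.15 and -0.24. The amino acid transporter gene Slc7a1 (0.84) passed with the replicate block, array weights and no injection covariate, and Slc7a6 (0.77) with the mean over probe sets. Of 15 clock genes Hlf (1.58 ± 0.29) rose, where 2.3% of all genes did, a call lost without MycON exenatide replicate 1 or MycOFF water replicate 1 or 3. The mouse Myc probe set varied too little over the series to be tested and differed by 0.001 ± 0.045. The fusion is present in both groups and is switched by the drug, so no transcript checks the switch. Glp1r was below the same filter, and Mafa, Ins1 and Trp53 were not analysed here.

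Markers of other cell types gave 1 call, where 2.3% of all genes rose and 0.683% fell. Of 17 acinar genes, Klk1 (0.95 ± 0.14, adjusted p = 0.00736) rose and 0 fell. The other 3 probe sets of Klk1 were at -0.02, 0.16 and -0.04, and with the mean over its probe sets Klk1 did not pass (0.26, adjusted p = 0.585). The acinar median was 0.11, which ran from -0.30 without MycON exenatide replicate 2 to 0.44 without MycON exenatide replicate 3. None of the 7 alpha, delta and PP cell genes (median -0.45, or -0.28 without MycOFF exenatide replicate 1, Gcg -0.45 ± 0.34), 7 duct, 18 macrophage and immune (median 0.30), 5 lymphoid, 12 endothelial, 13 stromal (median 0.31), 10 skin and muscle or 3 red cell genes passed. The macrophage and immune list had its lowest mean, -1.61, on MycOFF exenatide replicate 1, against -0.72 to 0.50 on the MycON arrays and -0.62 to 0.08 on the other MycOFF arrays, and without that array its median was -0.001. The islet label could be checked only by deviations, since absolute levels are lost: the islet hormone list averaged -0.90 to 0.38 on the MycON arrays and 0.34 to 0.80 on the MycOFF arrays, against -5.13 on the excluded array.

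The genes that rose or fell had the same sign with both injections, but few genes passed within either. Tested by limma, 20 genes passed with water (0.152%), 14 higher and 6 lower. With exenatide 84 passed (0.638%), 75 higher and 9 lower. Over all genes the differences with water and with exenatide correlated at 0.497 (Pearson). With water the 303 genes that rose had a median difference of 1.499 (3 MycON and 2 MycOFF arrays) and with exenatide 1.71 (3 and 3 arrays), and the 90 that fell had -1.35 and -1.15. All 303 were above 0 with both injections, against 28.8% of all genes, and all 90 were below 0 with both, against 26.3%. The calls used these same arrays, so the shared sign is a description. Within each injection the MycON and MycOFF arrays separated for 285 of the 303 (4.61% of all genes did so upward) and for 84 of the 90 (2.36% downward). Cdt1 differed by 4.58 ± 0.71 with water and 5.57 ± 0.63 with exenatide, Psat1 by 3.45 ± 0.45 and 3.47 ± 0.40, and Pdx1 by -1.61 ± 0.16 and -1.27 ± 0.15. Bub1b differed by 1.81 ± 0.57 with water and 3.92 ± 0.51 with exenatide, and the test of that difference gave an adjusted p of 0.786.

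The difference between the injections passed for 2 genes (0.0152%), 1 in each direction (0.00759% each), with 582 at an unadjusted p under 0.05 (4.42%). Asb15, a gene of a ubiquitin ligase adaptor family, was -0.56 to 0.09 on the MycON arrays, against 2.68 and 2.71 on the MycOFF water arrays and -0.34 to -0.02 on the MycOFF exenatide arrays. Its difference between MycON and MycOFF was -2.78 ± 0.19 with water and -0.20 ± 0.17 with exenatide (adjusted p = 0.0266 for the difference between them). Irak1bp1 was -0.12 to 0.71 on the MycON arrays, against -1.10 and -0.96 on the MycOFF water arrays and 0.56 to 0.69 on the MycOFF exenatide arrays. Its differences were 1.58 ± 0.15 with water and -0.64 ± 0.14 with exenatide (adjusted p = 0.0266). In both genes the 2 MycOFF water arrays stood apart from the other 9. In 11 fits without 1 array the number of genes was 0 in 9, 2 without MycOFF water replicate 1 and 3 without MycON water replicate 1.

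**Figure D4:**
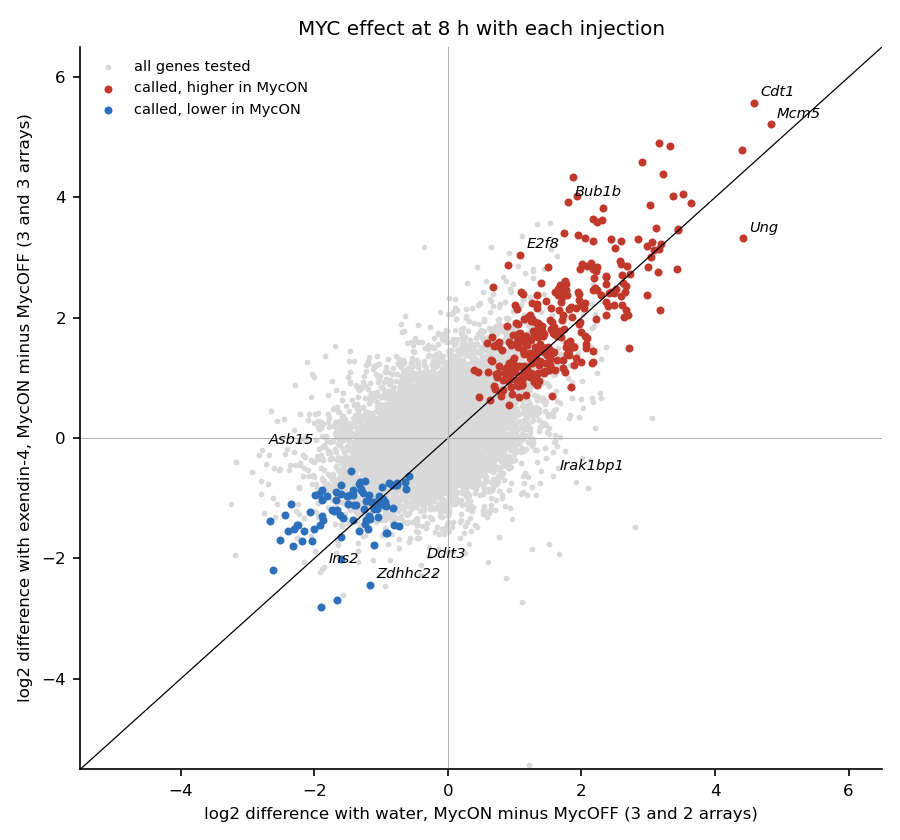
Difference between MycON and MycOFF at 8 h (log2) with water (horizontal) and with exendin-4, that is exenatide (vertical), for 13176 genes, with the 303 called rises in red and the 90 called falls in blue and a line where both are equal. All called genes lie in the upper right or lower left of the plot, whereas Asb15 has -2.78 with water and -0.20 with exenatide and Irak1bp1 1.58 and -0.64.

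The medians of the replication genes were highest at 8 h and that of the mitosis genes at 16 h. The times were compared in 1 limma fit of 20 groups over the 52 kept arrays, in which 518 genes passed at 8 h (3.93%), 302 at 4 h (2.29%), 301 at 16 h (2.28%), 436 at 32 h (3.31%) and 182 at 72 h (1.38%). The median of the licensing list was 0.87 at 4 h, 2.56 at 8 h, 1.82 at 16 h, 1.91 at 32 h and 1.20 at 72 h. That of the mitosis list was -0.26, 0.86, 2.79, 0.21 and 1.38 at the same times. That of ribosome biogenesis was 0.80, 0.84, 0.31, 1.02 and -0.09. Cdt1 differed by 2.22 ± 0.67 at 4 h, 5.08 ± 0.67 at 8 h, 4.74 ± 0.74 at 16 h, 3.54 ± 0.70 at 32 h and 2.79 ± 0.67 at 72 h, and the difference between 8 h and 4 h (2.86 ± 0.94) had an adjusted p of 0.77. Mki67 differed by -1.09 ± 0.82 at 4 h, 1.32 ± 0.82 at 8 h and 4.03 ± 0.90 at 16 h, and in this fit its 8 h value did not pass (adjusted p = 0.499). Slc16a1 was already at 3.54 ± 0.46 at 4 h and 3.70 ± 0.46 at 8 h. It was at -0.31 ± 0.46 at 72 h. Pdx1 differed by -0.45 ± 0.29 at 4 h, -1.44 ± 0.29 at 8 h, -0.11 ± 0.32 at 16 h, -1.23 ± 0.31 at 32 h and 0.24 ± 0.29 at 72 h.

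**Figure D5:**
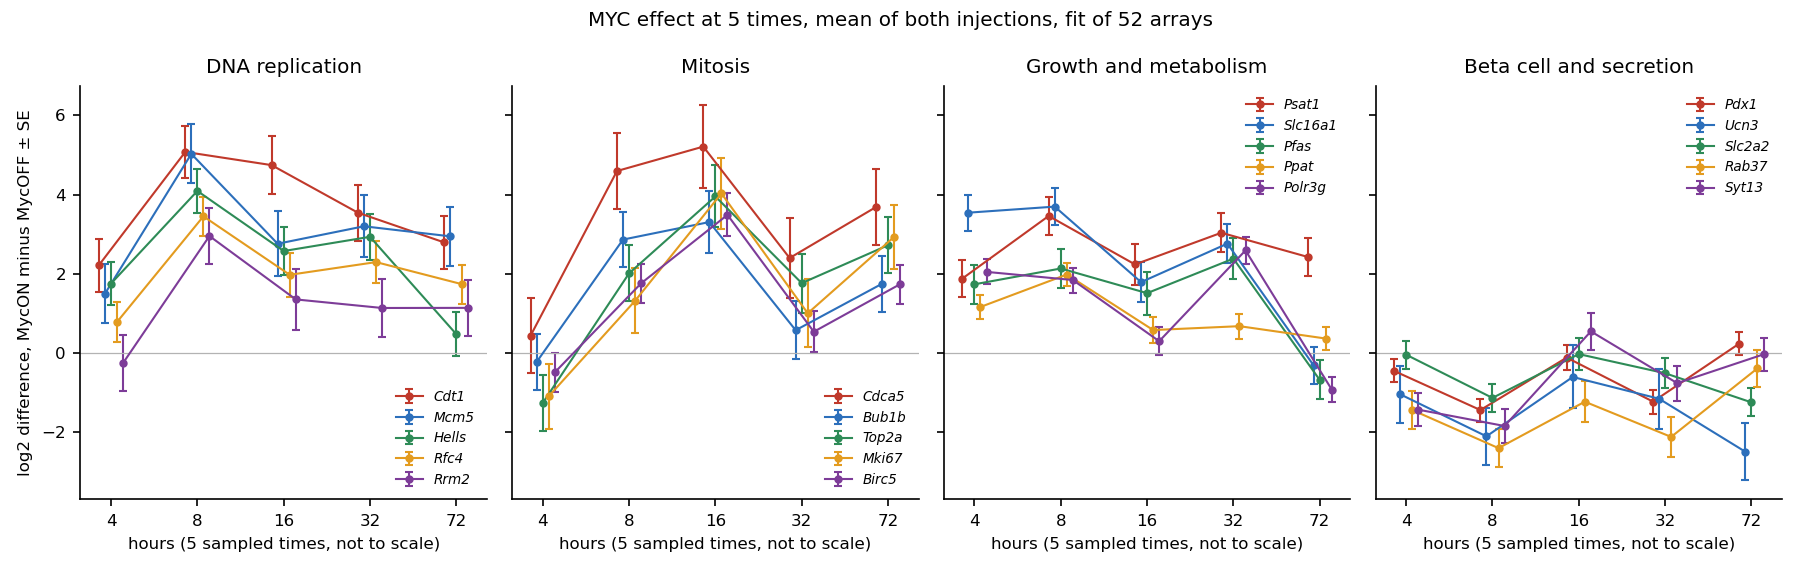
Difference between MycON and MycOFF (log2 with SE bars, vertical) at 4, 8, 16, 32 and 72 h (horizontal, not to scale) for 20 genes in 4 panels, from the fit of 52 arrays. Cdt1 and Mcm5 are highest at 8 h, Top2a and Mki67 at 16 h, and Pdx1 lies below -1 at 8 and 32 h only.

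Tests of the difference between times had less precision, with a median SE of 0.46 for 8 h against 4 h and 0.49 for 8 h against 16 h. Between 8 h and 4 h 0 genes passed by limma, with 558 at an unadjusted p under 0.05 (4.23%). The smallest p belonged to the nuclear pore gene Ndc1 (2.21 ± 0.45) and the kinetochore genes Spc24 (3.05 ± 0.63) and Cenpk (3.02 ± 0.71), with adjusted p of 0.16, 0.16 and 0.37. Between 8 h and 16 h 9 genes passed (0.0683%). The MYC effect was more positive at 8 h for Ung (4.24), Ak4 (2.91), Usp7 (2.80), Tmem158 (2.76), Taf1d (2.59) and Dctd (1.67), 0.0455% of all genes, and less positive (0.0228%) for the inhibitor Cdkn2d (-2.996), the mitotic ubiquitin enzyme Ube2c (-2.75) and Cebpzos (-1.91). Ung differed by 3.87 ± 0.52 between MycON and MycOFF at 8 h and by -0.37 ± 0.58 at 16 h. Ube2c differed by 0.26 ± 0.39 at 8 h and 3.01 ± 0.43 at 16 h. This count ran from 2 to 45 in the 52 fits without 1 array, lowest without MycON water 16 h replicate 1, MycOFF exenatide 16 h replicate 3 or MycOFF water 8 h replicate 3 and highest without MycON exenatide 16 h replicate 3. In all, 30 of these fits moved it by over 1.5 times. Against the mean of the other 4 times 0 genes passed by limma, with 935 at an unadjusted p under 0.05 (7.1%), and Ndc1, Taf1d and Pa2g4 came nearest (adjusted p = 0.076 each).

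The 303 genes that rose at 8 h were measured at the other times on other arrays. At 4 h, 266 of them were above 0 (39.4% of all genes were) and 82 passed as higher (1.58% of all genes), with a median of 0.93. At 16 h, 261 were above 0 (52.7% of all genes) and 75 passed (2.06%), with a median of 0.90. At 32 h, 296 were above 0 (43.4%) and 114 passed (2.36%), with a median of 1.21. At 72 h, 193 were above 0 (43.8%) and 19 passed (1.15%), with a median of 0.22. Of the 90 genes that fell at 8 h, 87 were below 0 at 4 h (60.6% of all genes), 58 at 16 h (47.3%), 89 at 32 h (56.6%) and 60 at 72 h (56.2%), with medians of -0.71, -0.16, -0.84 and -0.21. Of these, 18 passed as lower at 4 h (0.713%), 2 at 16 h (0.22%), 28 at 32 h (0.949%) and 1 at 72 h (0.228%). The genes were chosen by their 8 h values, so their 8 h medians are not on the same footing as those of the other times.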

How the data were processed

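Islet RNA was measured on Affymetrix arrays. The deposited values are on a log2 scale, centred by the authors on each probe set's median over the 60 arrays (100% of 45101 probe sets, tolerance 1e-04). The base is not stated and was taken as 2, because the values span -12.3 to 12.8, beyond the natural log of a 16-bit intensity (11.1). Per the submitters' processing notes MAS5 and GCRMA were named, with no role or version. Absolute levels, detection and background cannot be read from centred values, and the number of arrays limits the precision.

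Groups came from the titles and the submitters' exclusions. Of 18193 genes with a single-symbol probe set (34945 probe sets with 1 symbol, 932 with several, 9160 with none), 13176 were tested. A probe set needed an interquartile range over the 52 kept arrays of 0.101 or more, the 40th percentile, and the widest stood for its gene. limma 3.58.1 in R 4.3.3 was fitted to the 11 arrays with injection as covariate (lmFit, eBayes, 8 residual and 2.02 prior degrees of freedom) and p was adjusted by Benjamini-Hochberg over all genes. Injections were compared by an interaction term, times in 1 fit of 20 groups over 52 arrays. The procedure was tested on simulated data. Genes named were the 15 largest rises and 15 largest falls past the threshold whose arrays did not overlap, a fixed set, and up to 6 called members per list, with further members given by value. The comparison, members and lists were chosen with earlier results of these data known. Of 740 list entries 630 were tested, 45 varied too little and 65 had no probe set of a single gene. Alternatives were another normalization, filter, probe set rule, array weights, covariate, set of arrays, a replicate block, and leaving out each array. Figures were drawn with matplotlib 3.10.9.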

Additional observations from a re-analysis of the deposited data

Results flagged for a closer look

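Of 270 gene and group pairs, 25 held an array far from the others of its group, and chance gives about 1 in 20. In MycON islets these were Klk1 (1.43 on water replicate 3), Lum (1.13 on exenatide replicate 1), Max (0.848 on water replicate 1), Mcm5 (3.64 on exenatide replicate 2), Pmpca (0.543 on water replicate 2), Rad51ap1 (1.09), Rfc5 (1.00) and Zmat3 (-0.586) on water replicate 3, Slc2a2 (-1.55 on exenatide replicate 3) and Zfhx3 (0.919 on exenatide replicate 2). In MycOFF islets, exenatide replicate 1 stood apart for Acta1 (2.08), Ahsa1 (-1.49), Cad (-0.791), Ctps (-2.11), Ins2 (-0.037) and Tspan4 (-2.71). Exenatide replicate 2 did so for Cdkn2a (-0.554), Dhcr7 (-0.102) and Lum (-0.0053), and exenatide replicate 3 for Abca7 (0.344), Birc5 (0.372), Ccna2 (0.821) and Slc4a1 (0.612). Water replicate 1 did so for Krt18 (-1.39) and water replicate 3 for Slc7a6 (0.741).

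The effect of MYC differed between injections for Asb15 (2.58, exenatide minus water) and Irak1bp1 (-2.21). It differed between 8 h and 16 h (8 h minus 16 h) for Ung (4.24), Ak4 (2.91), Usp7 (2.80), Tmem158 (2.76), Taf1d (2.59), Dctd (1.67), Cebpzos (-1.91), Ube2c (-2.75) and Cdkn2d (-2.996). On the excluded MycOFF water array the lymphoid markers averaged 6.32 and the macrophage and immune markers 3.04, against at most 0.520 and 0.499 on the arrays used.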

How the results depend on the processing

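The 393 genes of the 8 h comparison became 249 with no filter on spread, 636 with the mean over probe sets, 751 with array weights and 99 with the excluded MycOFF water array restored. Quantile normalization gave 511, of which 68.1% were higher against 77.1%. Without 1 array the count ran from 172 to 417. The difference between injections had 0 genes with a 60th percentile filter, with the excluded array restored and in the fit of 52 arrays, 1 with the mean over probe sets, and 0 to 3 without 1 array. For 8 h against 4 h array weights gave 5 genes and leaving out 1 array 0 to 2. For 8 h against 16 h there were 5 with no filter, 25 with the mean over probe sets, 3 with array weights, 0 with all 60 arrays and 2 to 45 without 1 array. Against the mean of the other times there were 1 with the mean over probe sets, 20 with array weights and 0 to 5 without 1 array.

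Of 82 named genes past the threshold, 49 kept it in all 11 fits without 1 array, 33 lost it in at least 1, and 19 kept it under every alternative run. The fit of 52 arrays ended 8 of these calls: Cyc1, E2f8, Mki67, Polr3k, Shmt2, Slc2a2, Top2a and Ucn3. In it 6 other named genes passed: Asb15, Cdkn2a, Ddit3, Eif4ebp1, Odc1 and Rasd1. Restoring the excluded array ended 53 of these calls, Cdt1, Mcm5 and Hells among them, and turned Slc2a2 (0.19). It also turned Gcg (0.65), Krt7 (0.23), Ms4a1 (-1.23), Pdgfra (-0.41) and Ube2c (-0.24), which had not passed. Ncl turned with the mean over probe sets (0.73) and array weights (0.53), and Slc4a1 with quantile normalization (-0.046) and array weights (-0.10). Without 1 array, Ncl ran from -0.51 to 0.52, Slc4a1 from -0.045 to 0.20, Ccnd2 from -0.33 to 0.40, Cdkn1a from -0.15 to 0.83, Ube2c at 8 h from -0.032 to 0.67 and Xbp1 from -0.39 to 0.091. The cause was not tested. Other Xbp1 probe sets past the filter were at -0.75, -0.87 and -0.73. Of 85 further probe sets of 43 named genes, 6 had the other sign and 60 were under 0.5 of the difference used. Those with the other sign belonged to Atr, Dleu2, Klk1, Top2a and Zfhx3.

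Replicate numbers gave no general sign of pairing: over 15 same-numbered pairs the median correlation of deviations was -0.111, and 3 of 11 arrays correlated best with their own number. Of the 15 pairs 3 were over 0.1, the highest at 0.344 between MycOFF exenatide and MycOFF water replicates 3. Deviations within the group of 2 arrays mirror each other and the pairs share arrays, so this check cannot settle the pairing. With the replicate number as a block 312 genes passed, 264 of them shared, the difference between injections had 0 genes, 8 h against 16 h had 11, and Ncl differed by 0.036.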

Other observations

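Nuclear pore and nuclear transport genes were looked at after their values had been seen, and are given as a description. Of 24 nucleoporin genes, 6 rose and 0 fell in MycON islets, with a median of 0.79, a range of -0.61 to 2.67 and 21 above 0. Those that rose were Nup85 (2.67), the membrane anchor Ndc1 (2.65), Nup54 (1.90), Nup205 (1.83), Nup62 (1.67) and Nup133 (0.91). Of 24 nuclear transport receptor genes, 4 rose and 0 fell, with a median of 0.56, a range of -0.74 to 1.68 and 19 above 0. These were the importins Kpna3 (1.68) and Ipo5 (1.596), the importin alpha exporter Cse1l (1.27) and the general exporter Xpo1 (1.09). Over all 13176 genes, 303 rose (2.3%) and 90 fell (0.683%), the median was 0.04 and 56.1% were above 0.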
